A study of Caenorhabditis elegans with 16 samples.

Results

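Loss of the nuclear Argonaute HRDE-1 was examined in Caenorhabditis elegans that already lacked SET-32, using 4 small RNA libraries of the 16 in the series. The libraries were the single mutants set-32(ok1457) and set-32(red11) and the double mutants set-32(ok1457); hrde-1(tm1200) and set-32(red11); hrde-1(tm1200), all from young adult hermaphrodites. Both groups therefore carry a set-32 mutation, and the comparison is of hrde-1(tm1200) with hrde-1 never mutant inside that background. The libraries were chosen by genotype and by a library-name prefix, SG0717, that all 4 share. Each genotype had 1 library, so the 2 alleles of set-32 served as 2 pairs, and nothing in the labels says how many cultures stood behind a library. The other backgrounds of the series, wild type and met-2(n4256) set-25(n5021), had 1 such pair each and are used here only for contrast.

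HRDE-1 is an Argonaute protein of germline nuclei that binds antisense secondary siRNAs, which RNA-dependent RNA polymerases copy from a target transcript. With these guides it silences the transcription of the target locus and keeps the silenced state heritable across generations. SET-32 is a SET-domain protein, a putative histone H3 methyltransferase of the same nuclear RNAi pathway. Cloning was independent of a 5′ monophosphate, which lets secondary siRNAs with a 5′ triphosphate enter the library. The deposited values were RPKM per 1 kb bin of the genome, and a bin adds up small RNAs of both strands and of every length, so siRNAs cannot be told apart from other small RNAs over the same bin.

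Before the comparison, the libraries were read for depth and tissue. One read was worth 2.86 RPKM per bin in the ok1457 single mutant, 4.26 in its double mutant, 2.45 in the red11 single mutant and 2.62 in its double mutant, which corresponds to 334, 216, 395 and 363 reads in units of 1000. A value of 3 reads thus stood at 7.35 to 12.78 RPKM, and differences between bins below that level were not detectable at this depth. All 4 libraries had low small RNA signal over intestine genes. Summed over the 8 intestine markers, among them the vitellogenin genes, the singles lay at 157.4 and 138.2 RPKM and the doubles at 145.7 and 178.0 RPKM, against 616.1 to 12428.7 in the other 12 libraries. None of the 8 was at 0 in any of the 4 libraries. The 5 muscle markers lay at 34.7 and 27.4 RPKM in the singles and at 233.3 (ok1457) and 10.6 (red11) in the doubles. The high ok1457 value lay mostly in a pair of bins of unc-54, the myosin heavy chain gene, at its end shared with aex-5. They held 76.9 and 89.5 RPKM in the ok1457 double mutant, against 0.01 to 0.03 and 2.62 to 4.89 RPKM in the other 3 libraries. The 5 hypodermis markers summed to 23.3 to 35.0 RPKM and the 6 neuronal ones to 534.0 to 726.4 in the 4 libraries. Of 26 tested bins over these somatic markers 1 was called, that of ric-4, lower in the doubles, and their part in the results was not tested. Over the hrde-1 gene itself small RNAs summed to 589.0 RPKM in the ok1457 single and 389.8 in its double, and to 710.9 and 342.8 in the red11 pair. Both doubles were thus below both singles, but 0 of 5 tested hrde-1 bins were called by limma (3 lower at an unadjusted p under 0.05). Small RNAs over a gene are not its mRNA, and this sum does not settle the genotype.

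Of 100257 bins, 25928 averaged 5 RPKM or more across both pairs and were tested with limma on log2(RPKM + 5), with the allele as a block and Benjamini-Hochberg adjustment over all of them. A call means an adjusted p under 0.05. Small RNAs rose in 400 bins (1.54% of those tested) and fell in 562 (2.17%) when hrde-1 was lost. Joined where they lay at most 1 kb apart, these made 229 raised and 306 lowered regions. Every called bin had the same sign in both alleles. The fit takes the disagreement of the alleles as its spread, so this follows largely from the calling and is not replication. At least 2-fold in both alleles were 613 bins in the upward direction (2.36%) and 940 in the downward direction (3.63%), which is a description with no test. Bins that were at least 2-fold apart in opposite directions numbered 131 (up in ok1457, down in red11) and 149 (the reverse). The median bin moved little, by -0.03 in ok1457 and -0.02 in red11 on the log2 scale. Across the tested bins, which share their libraries and are not independent, the differences of the 2 alleles had a correlation of 0.35.

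**Figure D1:**
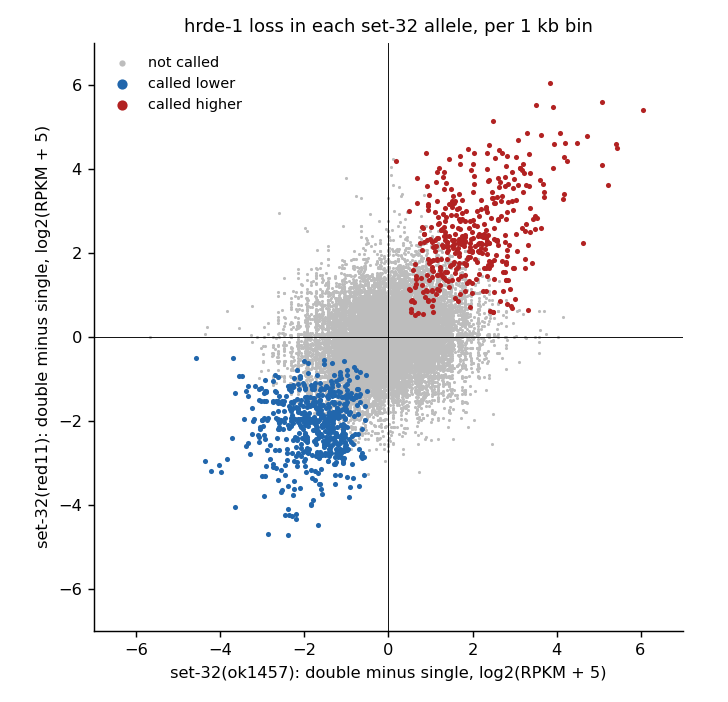
Each point is a 1 kb bin, with the difference between double and single mutant on the log2(RPKM + 5) scale in set-32(ok1457) on the x axis and in set-32(red11) on the y axis. The 400 bins called higher (red) all lie in the upper right and the 562 called lower (blue) in the lower left, while most of the 25928 tested bins (grey) lie near 0.

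The raised and lowered bins started from different levels. Raised bins had a median of 10.2 RPKM in the ok1457 single and 66.4 in its double, and of 5.71 and 71.5 RPKM in the red11 pair. Their summed share of the library went from 2.49 to 6.69% in ok1457 and from 1.82 to 6.24% in red11. In the ok1457 single mutant 33 of the 400 were at 0, and in the red11 single 54 were. Lowered bins had a median of 100 RPKM in the ok1457 single and 24.3 in its double, and of 78.3 and 12.7 RPKM in the red11 pair, with the summed share going from 9.36 to 3.42% and from 7.63 to 2.01%. These levels follow from the calls and the filter: a bin that passed a mean of 5 RPKM with less than 5 RPKM in the singles had to be higher in the doubles. The share of tested bins called lower rose with the mean of the singles. It was 0.0887% at 5 to 20 RPKM, 3.18% at 20 to 100 and 15.8% at 100 or more.

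The number of calls depended on the allele block, the filter and the trend. Without the filter on low bins 0 higher and 0 lower were called by limma, and all 24 leading bins named below lost their calls. Without a trend 151 and 126 were called. A fit of all 4 libraries without the block called 96 higher and 46 lower. Leaving out a library removes the block as well, so those counts are to be read against 96 and 46. Without the ok1457 single mutant limma called 79 higher and 8 lower, without the red11 single 34 and 8, without the ok1457 double 121 and 178, and without the red11 double 91 and 41. In these fits the lone sample is assumed to vary like the rest.

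Among raised bins the leading one lay on chromosome V, 11492001 to 11493000, over the pseudogene T11F9.19 and the gene T11F9.21. It held 0 and 2.46 RPKM in the ok1457 and red11 single mutants and 328 and 307 RPKM in the doubles. Both singles were near 0 and the doubles lay close to each other, with a mean log2 difference of 5.72 ± 0.39 (SE, 2 pairs, limma adjusted p = 3.66e-07). The region it belongs to spanned 5 bins between dhs-19 and htrl-1 and summed to 6.4 and 4.9 RPKM in the singles against 698.6 and 714.9 in the doubles.

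Y43F4A.1, a protein-coding gene of chromosome III, carried one of the longest raised regions, 6 bins from 13223001 to 13229000. Its top bin held 0.2 and 7.37 RPKM in the singles and 222 and 274 RPKM in the doubles (4.97 ± 0.39, adjusted p = 8.45e-07). Over the whole region the sums went from 73.5 to 684.6 RPKM in ok1457 and from 40.8 to 827.4 in red11. In the wild-type pair the same bin was at 16.7 RPKM with hrde-1 intact and 17.4 in the hrde-1 mutant, and in the met-2 set-25 pair at 1.91 and 98.0.

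The bin of fbxa-60, an F-box gene, held 26.7 and 3.26 RPKM in the ok1457 and red11 singles and 598 and 144 RPKM in the doubles (4.21 ± 0.34, adjusted p = 9.56e-07). The 2 alleles differed in level but not in the size of the change, 4.25 and 4.18. Without the red11 single mutant this call was lost (adjusted p = 0.0995). The asm-3 bin, over a gene for an acid sphingomyelinase, went from 0.3 to 175 RPKM in ok1457 and from 2.69 to 126 in red11 (4.59 ± 0.42, adjusted p = 4.44e-06). It also went from 0.18 to 36.9 RPKM in the wild-type pair and from 0.25 to 113 in the met-2 set-25 pair, so all 4 pairs had it low with hrde-1 intact and higher in the mutant.

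A bin of nadk-1, which codes for an NAD kinase, held 8.85 RPKM in the ok1457 single and 205 in the double, and 2.45 and 325 RPKM in the red11 pair (4.69 ± 0.41, adjusted p = 2.91e-06). In the wild-type pair it was at 18.9 and 6.74 RPKM, and in the met-2 set-25 pair at 3.8 and 2.44. The test of the difference between backgrounds did not pass (5.33 ± 0.69, adjusted p = 0.284). The pseudogene F41G4.5 on the X chromosome, part of a 6-bin region, held 5.91 and 2.24 RPKM in the singles and 400.4 and 83.9 in the doubles, against 1.86 to 5.17 RPKM in the 4 libraries of the other pairs (4.42 ± 0.43, adjusted p = 5.97e-06). Its call was lost without the red11 single mutant (adjusted p = 0.0598). The remaining leading raised bins, over ZK228.3, ZK228.4, R03D7.2, Y53H1B.2, Y61A9LA.7 and a bin at 10868001 of chromosome V that overlaps no named gene, had mean differences of 3.97 to 5.33. The names of the ZK228 bins are less certain, since the match of bins to the annotation was not best at shift 0 in their window.

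**Figure D2:**
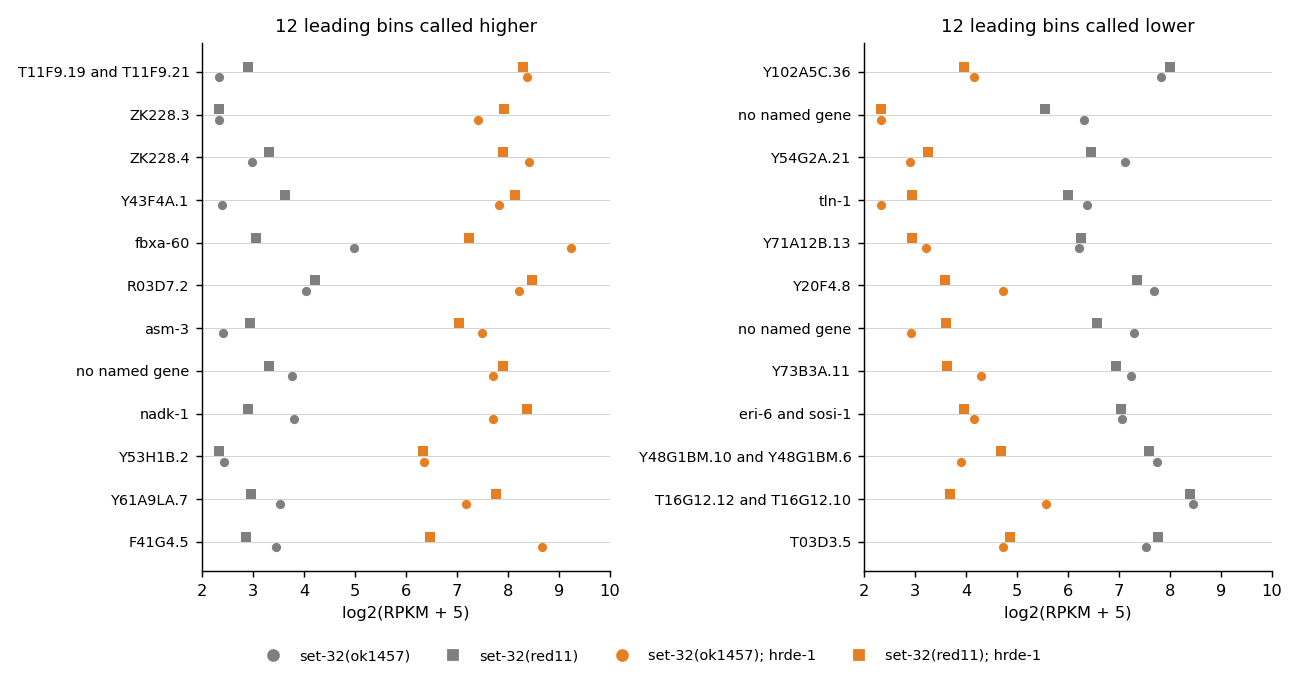
log2(RPKM + 5) in each of the 4 libraries for the 12 leading bins called higher (left) and lower (right), ordered by the smaller difference of the 2 alleles. Circles are set-32(ok1457), squares set-32(red11), grey the single mutants and orange the doubles. In all 24 bins the grey and orange points do not overlap; the bins were chosen for this difference.

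Lowered bins were led by Y102A5C.36, a protein-coding gene on chromosome V. Its bin at 16927001 held 220.2 and 249.6 RPKM in the ok1457 and red11 singles and 12.8 and 10.46 RPKM in the doubles (-3.85 ± 0.35, adjusted p = 3.74e-06). The doubles were at 3 to 4 reads' worth, and both singles were far above them. The wild-type pair went from 82.7 to 23.7 RPKM and the met-2 set-25 pair from 76.3 to 9.38, the same direction in every background.

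The longest lowered region covered 12 bins of Y54G2A.21, annotated as a pseudogene, between 2902001 and 2915000 of chromosome IV. It summed to 2089.1 RPKM in the ok1457 single and 396.8 in the double, and to 1664.2 and 290.0 RPKM in the red11 pair. In its top bin the singles held 135 and 82.9 RPKM and the doubles 2.48 and 4.58 RPKM (-3.71 ± 0.43, adjusted p = 3.64e-05). The wild-type pair had 12.6 and 6.66 RPKM there and the met-2 set-25 pair 3.1 and 10.95 RPKM, so the high values were those of the set-32 single mutants. Without the ok1457 single mutant this bin was not called (adjusted p = 0.0686).

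Further lowered bins lay over other named genes. A bin of tln-1, the talin gene, held 77.2 and 58.7 RPKM in the singles and 0 and 2.62 in the doubles (-3.55 ± 0.45, adjusted p = 0.000106). A bin shared by T16G12.12 and T16G12.10 went from 344 to 42.6 RPKM in ok1457 and from 330.3 to 7.85 in red11 (-3.79 ± 0.38, adjusted p = 9.56e-06). AC8.4, AC8.3, AC8.7, AC8.10 and AC8.12, spread over a pair of regions of 6 and 7 bins on the X chromosome, summed to 1263.7 and 1274.3 RPKM in the ok1457 single and 466.9 and 469.8 in its double, and to 1089.5 and 1092.9 against 164.1 and 168.0 RPKM in the red11 pair. Both regions thus had nearly the same sums in each library, and whether the same reads were counted in both is not known. At the AC8.3 bin the wild-type pair had 221 and 217 RPKM and the met-2 set-25 pair 247 and 183. The other leading lowered bins had mean differences of -3.66 to -2.86. The one at 13931001 of chromosome I, with no named gene, held 151 and 89.4 RPKM in the singles and 2.52 and 7.2 in the doubles. A further lowered bin, at 17634001 of chromosome V, held 151 and 91.0 in the singles and 6.78 and 12.96 in the doubles. These values lie close to those of the top Y54G2A.21 bin, and whether the same reads were counted at these places is not known. Of the 12 leading lowered bins, 10 lost the call when one or the other single mutant library was left out (adjusted p 0.0512 to 0.119), the exceptions being Y102A5C.36 and Y48G1BM.10 with Y48G1BM.6.

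Nuclear RNAi targets known from earlier work on the pathway were examined as a list of 8 genes, in 25 tested bins. Of these, 14 fell (56.0%, against 2.17% of all tested bins) and 4 rose (16.0%, against 1.54%). Among all tested bins averaging 100 RPKM or more in the singles, 15.8% fell and 2.38% rose. The list was not compared with other bins at matched starting levels. The median over the list was -1.22 on the log2 scale, against -0.03 over all tested bins. Summed over the 8 genes, the small RNA signal was 8362.4 RPKM in the ok1457 single and 4634.5 in its double, and 6747.2 and 3335.9 in the red11 pair, so that both doubles lay below both singles. All tested bins of F07B7.1 (4 of 4) and F07B7.2 (5 of 5) fell. The top bin of F07B7.1 held 356 and 223 RPKM in the singles and 79.5 and 48.4 in the doubles (-2.09 ± 0.28, adjusted p = 0.000155). The annotation gives each of these names at a pair of loci on chromosome V, and the counts take in both. How reads that match both were handled is not known. The calls of the list rest on the allele block: without it, and with all 4 libraries, 0 of the list's bins were called lower and 2 higher. Leaving out a library also removes the block, and then 5 were called lower without the ok1457 double mutant and 0 without each of the other 3, with 1 called higher each time. Before adjustment 16 bins were lower and 5 higher at p under 0.05 in the fit with all 4 libraries.

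F15D4.5 fell in 2 of its 3 tested bins. The leading one held 1227 RPKM in the ok1457 single and 526 in its double, and 964 and 184 in the red11 pair (-1.79 ± 0.22, adjusted p = 8.64e-05). The fall was larger in red11 (-2.36) than in ok1457 (-1.21), a difference that was not tested. Its neighbour F15D4.6 went from 303 to 168 RPKM and from 207 to 52.3 (-1.36 ± 0.3, adjusted p = 0.0112). bath-45, a gene with BTB and MATH domains, had 1009 and 814 RPKM in the singles and 707 and 513 in the doubles at its top bin, and did not pass (-0.59 ± 0.16, adjusted p = 0.0566). W05H12.2, annotated as a pseudogene, had most of its signal in a bin shared with W05H12.4, at 269 and 200.2 RPKM in the singles and 258 and 139 in the doubles, which did not pass (-0.29 ± 0.25, adjusted p = 0.703). Its other tested bin held 3.01 to 19.6 RPKM, near the depth limit.

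In R03D7.2 bins of the same gene changed in opposite directions. Summed over the gene, the signal rose from 312.6 to 496.6 RPKM in ok1457 and from 177.0 to 550.3 in red11. The bin at 10934001 of chromosome II, wholly exonic, held 11.4 and 13.5 RPKM in the singles and 291 and 351 RPKM in the doubles (4.22 ± 0.33, adjusted p = 8.45e-07). The bin that covers the 3′ end of the gene, at 10932001, instead went from 290 to 111 RPKM in ok1457 and from 145 to 59.8 in red11 (-1.27 ± 0.28, adjusted p = 0.0128). The bin between them and 3 bins upstream also rose, the farthest centred 2.32 kb before the annotated 5′ end. Of these, the bin at 10935001 also overlaps the pseudogene R03D7.3. In the met-2 set-25 pair the bin at 10934001 was high on both sides, at 160.1 RPKM with hrde-1 intact and 178 in the mutant, and in the wild-type pair it went from 8.7 to 53.2.

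C38D9.2 and F57A8.1 had the same kind of arrangement, a raised stretch 5′ of a lowered one. In C38D9.2 the bin centred 1.35 kb from the gene's start rose from 16.1 to 99.7 RPKM in ok1457 and from 15.6 to 115 in red11 (2.43 ± 0.37, adjusted p = 0.000558), while the bin at 4.35 kb fell from 629 to 256 and from 452 to 89.0 (-1.78 ± 0.25, adjusted p = 0.000288). In F57A8.1 the bin at 10.16 kb went from 25.7 to 187 and from 22.0 to 344 RPKM (3.17 ± 0.34, adjusted p = 1.9e-05). The next bin, 1 kb further along, went from 196 to 76.7 and from 152 to 78.5 (-1.1 ± 0.29, adjusted p = 0.0431).

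The eri-6 locus holds eri-6, a helicase gene of the endogenous siRNA pathway whose transcript is joined to that of eri-7 by trans-splicing, together with sosi-1. Of its 15 tested bins 10 fell (66.7%, against 2.17% of all tested bins) and 1 rose (6.67%, against 1.54%). Among tested bins averaging 100 RPKM or more in the singles, 15.8% fell and 2.38% rose. Summed over the locus the signal was 3701 RPKM in the ok1457 single and 1615 in its double, and 3270.2 and 1250.0 in the red11 pair. The lowered bins formed 1 run from 4460001 to 4470000 of chromosome I. At the bin of sosi-1 at 4461001 the singles held 129 and 126 RPKM and the doubles 12.8 and 10.46 (-2.99 ± 0.37, adjusted p = 8.64e-05). Without the allele block 1 of the 10 lowered bins was called, without either single mutant 0, without the ok1457 double 5 and without the red11 double 1. The raised bin, 1.13 kb from the annotated start of eri-6, went from 51.5 to 119.3 RPKM and from 51.4 to 248.5 (1.65 ± 0.33, adjusted p = 0.00575). It was not called without the block or without any 1 of the 4 libraries.

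**Figure D3:**
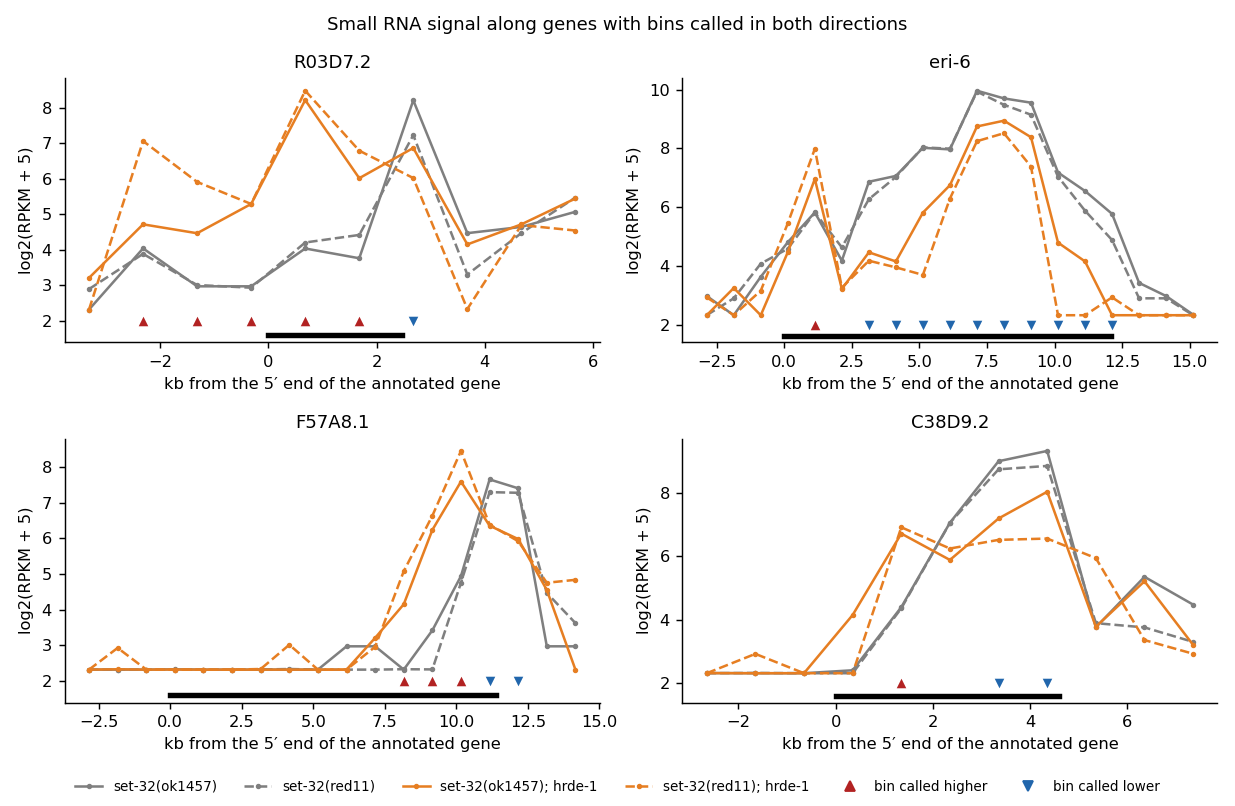
Small RNA signal, log2(RPKM + 5), per 1 kb bin along R03D7.2, eri-6, F57A8.1 and C38D9.2, against the distance in kb from the 5′ end of the annotated gene (black bar). Grey lines are the single and orange lines the double mutants, solid for ok1457 and dashed for red11, with upward triangles at bins called higher and downward ones at bins called lower. In R03D7.2, F57A8.1 and C38D9.2 the bins called higher lie on the 5′ side of those called lower, and in eri-6 the only bin called higher lies near the start. Of the 14 genes with bins called in both directions, 6 had the reverse order and are not drawn. Positions along C38D9.2 are less certain.

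Genes with bins called in both directions numbered 14, which is 5.32% of the genes overlapping a raised bin and 4.13% of those overlapping a lowered one. Raised bins lay on average 5′ of lowered bins in 8 of them and 3′ in 6, and in 5 and 5 of those in windows where the bins matched the annotation best at shift 0, so no single order held. The other 4 are C38D9.2, C03A7.13, rac-3 and F49F1.8, whose positions along the gene are less certain. Among the genes in well-matched windows with raised bins 3′ of lowered ones were egl-30, the gene for a Gq alpha subunit, and Y47H9C.9. C03A7.13 had 9 lowered bins followed by 2 raised ones near its 3′ end, at 12.04 and 14.04 kb. Of the 400 raised bins, 84 lay within 5 kb of a lowered bin, against 7.9% of all tested bins, and of the 562 lowered bins 87 (15.5%) lay within 5 kb of a raised bin, against 5.78%.

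The bin classes that the authors marked in their table were the next point of comparison. GRH and GRTS are column names left unexplained in the sources, which also do not name the libraries behind the marks. The marks are therefore not independent evidence of a direction. Of 192 tested GRH bins 64 fell (33.3%) and 6 rose (3.12%), with a median of -0.58, and of 179 GRTS bins 50 fell (27.9%) and 22 rose (12.3%), with a median of -0.45. Among all tested bins averaging 100 RPKM or more in the singles, 15.8% fell and 2.38% rose. The marked bins were not compared at matched starting levels. Without the allele block 9 lowered GRH and 3 lowered GRTS bins were called, without either single mutant 1 and 0, without the ok1457 double 28 and 21, and without the red11 double 6 and 1. Raised GRTS bins numbered 3 to 12 in these fits. Unmarked bins within 5 kb of a marked one, 831 in all, rose in 106 cases (12.8%) and fell in 65 (7.82%). Farther away, among 24750 bins, 1.07% rose and 1.58% fell. The GRTS bin shared by sru-17 and T04A11.14 on chromosome IV was one of the strongest raised: 62.9 and 23.3 RPKM in the singles and 680 and 568 in the doubles (3.84 ± 0.29, adjusted p = 8.19e-07). In the wild-type pair it went from 100.1 to 477 RPKM and in the met-2 set-25 pair from 48.4 to 450.4. grl-18, a gene of the hedgehog-related groundhog-like family marked GRTS, went from 0.21 to 43.1 RPKM and from 0 to 81.2 (3.66 ± 0.47, adjusted p = 0.000105).

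Called bins often lay outside annotated coding exons. No base of a protein-coding exon was present in 41.0% of raised and 37.5% of lowered bins, against 16.9% of all tested bins. Of the called bins, 124 raised and 137 lowered lay in windows not best matched at shift 0, where exon overlap is less certain. Exon overlap was also counted on chromosome V after 19.2 Mb, where no names were used. Bins whose leading gene was a pseudogene made up 9.75 and 12.6%, against 4.1%. Chromosome V held 29.8% of raised and 23.3% of lowered bins and 3887 of the 25928 tested ones. In the 21U-RNA clusters of chromosome IV, where piRNA genes lie, 32 of 2325 tested bins rose (1.38%) and 18 fell (0.774%), beside 1.54% and 2.17% of all tested bins. The difference from all bins was not tested. Named raised bins there lay over ugt-22, a UDP-glucuronosyltransferase gene (0 and 0 RPKM in the singles, 59.6 and 49.7 in the doubles), and over xdh-1, a xanthine dehydrogenase gene (0 and 0.11 against 46.9 and 70.6).

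Genes of the small RNA machinery were read against the same 1.54% and 2.17% of all tested bins, which leave few calls to be seen in lists of this size. With limma 0 of 55 tested bins over 17 Argonaute genes were called (7 before adjustment at p under 0.05), and 0 of 54 over 10 histone methyltransferase genes (1 higher and 1 lower before adjustment), with medians of 0.11 and 0.08. Of 82 bins over 16 genes of siRNA synthesis and nuclear RNAi, 1 fell, that of mut-7, an exonuclease-like gene needed for secondary siRNAs. It held 20.01 and 31.8 RPKM in the singles and 0 and 5.78 in the doubles (-2.05 ± 0.48, adjusted p = 0.0189), at low depth. Of 19 bins over 10 ERGO-1 26G-RNA target genes 1 fell, in fbxb-97, from 554 to 322 RPKM in ok1457 and from 617 to 231 in red11 (-1.08 ± 0.21, adjusted p = 0.00525).

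Few sperm gene bins were called, while their summed signal differed between the groups. Summed over 77 genes, small RNAs came to 1210.7 RPKM in the ok1457 single and 2069.3 in its double, and to 1944.5 and 2972.5 in the red11 pair. The groups did not overlap, and the median over 91 tested bins was 0.68, with 79 bins above 0 and 12 below. Over all tested bins 12389 lay above 0 and 13539 below. Before adjustment 22 sperm gene bins were higher and 0 lower at a limma p under 0.05. Only 2 of the 91 were called (2.2%, near the background of 1.54%), among them the bin of spe-5 and ift-20, at 0.04 and 2.46 RPKM in the singles and 85.2 and 68.0 in the doubles (3.73 ± 0.45, adjusted p = 6.05e-05). In the wild-type pair the list's median was -0.39 and in the met-2 set-25 pair -0.22. The sums of the other 12 libraries ran from 1486.7 to 4618.7 RPKM. Wild type with hrde-1 intact was the highest of them, and its hrde-1 mutant, at 2753.0, carries another name prefix. The ok1457 single mutant lay below all 12, and both doubles lay inside their range. Whether the opposite signs depend on SET-32 was not tested for the list. Oocyte and germline genes had a median of 0.24 and 0 calls in 40 bins (3 higher and 2 lower before adjustment). In whole animals a change in the number of germ cells and a change in small RNA per cell cannot be told apart, and their part in these results was not tested.

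Larger gene families were read against the shares over all tested bins, 1.54% higher and 2.17% lower. Over the F-box and MATH-BTB genes 17 of 447 tested bins rose (3.8%) and 28 fell (6.26%). The 3 named bins of fbxa-136 rose together, its strongest from 2.86 to 138 RPKM in ok1457 and from 2.04 to 69.0 in red11 (3.79 ± 0.43, adjusted p = 3.05e-05). That gene was at 1.86 to 15.01 RPKM in the wild-type and met-2 set-25 pairs at the same bin. Chemoreceptor genes had 7 raised (2.88%) and 3 lowered (1.23%) of 243 bins, near these shares. The bin shared by C42D4.19 and str-1, a serpentine receptor gene, went from 0 in both singles to 42.6 and 23.6 RPKM (2.88 ± 0.5, adjusted p = 0.00173). Histone genes had 5 raised (7.04%) and 1 lowered (1.41%) of 71. The bin of his-51 and his-52 at 8850001 of chromosome V went from 35.6 to 115 and from 12.18 to 79.3 RPKM (1.93 ± 0.37, adjusted p = 0.00469). The bin at 8892001, where the annotation lists both names again, had 39.8 and 112 RPKM in the ok1457 pair and 12.18 and 77.2 in the red11 pair. How reads that match several places were handled is not known. Of 160 bins overlapping microRNA genes 2 rose (1.25%) and 3 fell (1.88%), near the shares over all bins, and all 4 named ones also overlap a protein-coding gene.

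**Figure D4:**
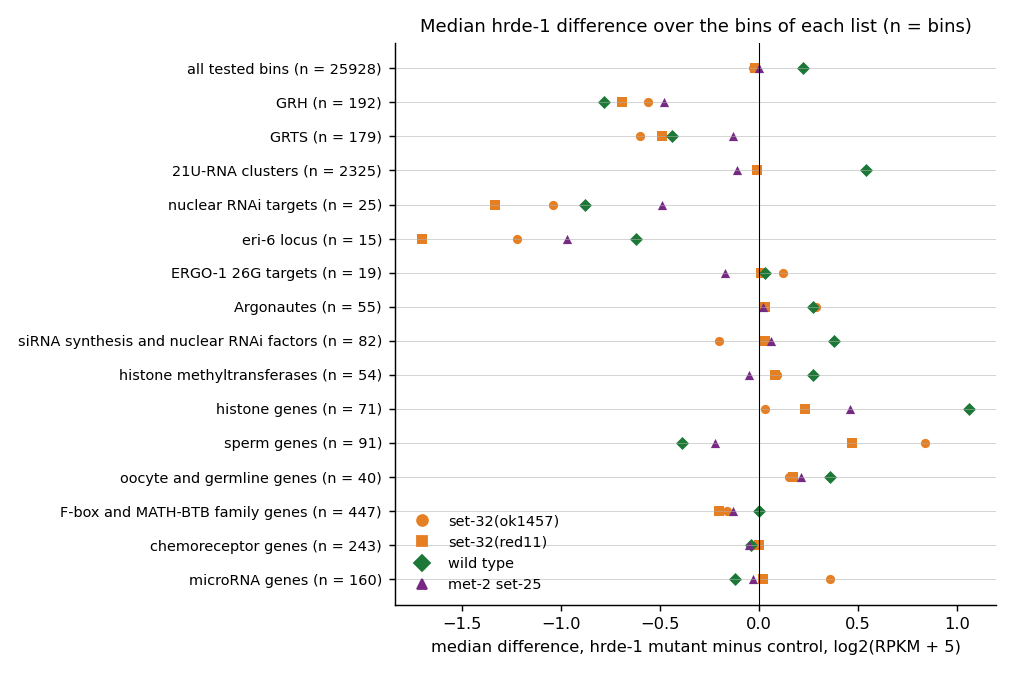
Median difference between hrde-1 mutant and control over the tested bins of each list (n in brackets), on the log2(RPKM + 5) scale, in set-32(ok1457) (circle), set-32(red11) (square), wild type (diamond) and met-2 set-25 (triangle). The nuclear RNAi targets and the eri-6 locus lie below 0 in all 4 pairs, and the sperm genes lie above 0 in both set-32 alleles and below 0 in the other pairs.

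Lastly the called bins were followed into the pairs in which SET-32 was present, from libraries the calls did not use. Of the 400 raised bins 173 (43.2%) were at least 2-fold higher in the hrde-1 mutant of the wild-type pair, against 14.5% of all tested bins, and 174 (43.5%) in the met-2 set-25 pair, against 6.61%. Both pairs had 102 of them (25.5%, against 1.92%). Of the 562 lowered bins 261 (46.4%, against 7.83%) were at least 2-fold lower in the wild-type pair and 278 (49.5%, against 8.75%) in the met-2 set-25 pair, with 160 (28.5%, against 2.09%) in both. Medians in the 2 pairs were 0.76 and 0.81 for raised and -0.87 and -0.99 for lowered bins, against 1.93 and 2.31, and -1.68 and -2.01, in the ok1457 and red11 alleles that chose them.

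**Figure D5:**
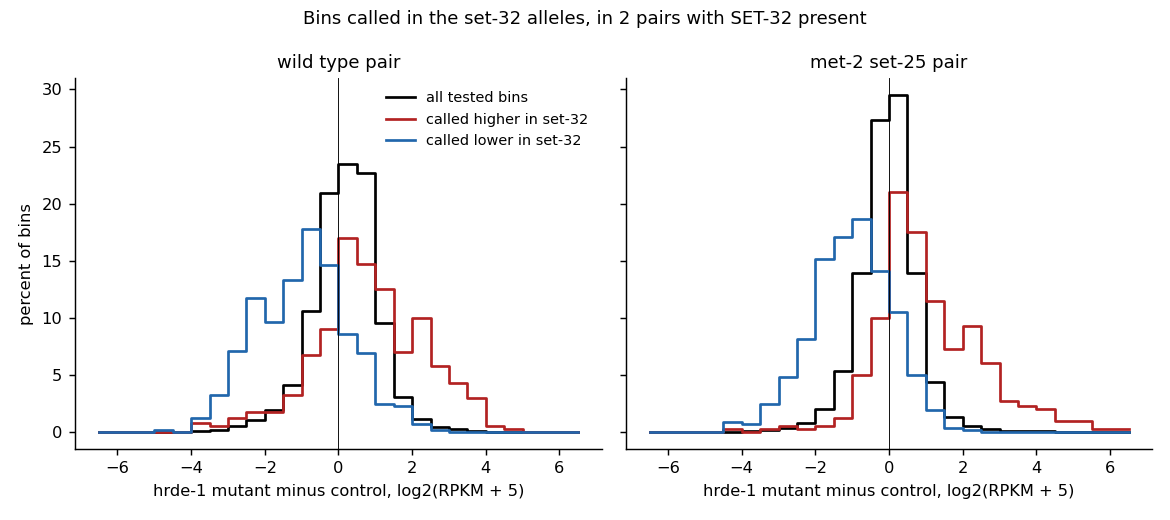
Distribution of the hrde-1 difference on the log2(RPKM + 5) scale, as the percent of bins per step, in the wild-type pair (left) and the met-2 set-25 pair (right), for all tested bins (black) and for bins called higher (red) or lower (blue) in the set-32 alleles. Raised bins have medians of 0.76 and 0.81 and lowered bins of -0.87 and -0.99, while all tested bins have medians of 0.22 and 0.

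Whether hrde-1 loss acted differently without SET-32 was tested as an interaction over the 8 libraries. No bin was called (0 of 25928, 0.0%), and before adjustment 842 bins had a positive and 1282 a negative difference at p under 0.05. For R03D7.2 at 10934001 the difference between backgrounds was 3.1 ± 0.64 (adjusted p = 0.296). The libraries of the wild-type pair carry 2 other name prefixes. In this fit the 4 libraries with SET-32 summed to 72.5 to 80.5% of a per-million total, against 92.0 to 96.7% for the 4 set-32 libraries. Background and library set therefore cannot be told apart. Repaired set-32 libraries with the SG0717 prefix, outside this fit, summed to 67.7 to 77.9%, so not every set-32 library had the high total. Without the wild-type pair 20 bins were called higher and 12 lower. R03D7.2 at 10934001 (difference 4.07, adjusted p = 0.00326) and nadk-1 (4.94, adjusted p = 0.0194) were among the former. Of the 20, 11 had also risen in the set-32 alleles, and in 16 the met-2 set-25 pair went at least 2-fold the other way, as in D2045.9, where it went from 151 to 18.8 RPKM while the set-32 pairs went from 20.01 to 89.5 and from 34.3 to 157. In that bin the wild-type pair went from 8.7 to 90.7 RPKM, the direction of the set-32 pairs and not of met-2 set-25. That fit rests on 1 pair outside set-32, which is assumed to vary like the set-32 pairs.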

How the data were processed

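The values are the authors' deposited RPKM in 100257 bins of 1000 bp. Their per-million base, the genome build and the handling of multiply matching reads were not given in the sources used here. The submitters' processing notes name Bowtie 0.12.7. Columns were matched to libraries by the name in each sample's description, and 27 of 43 library columns matched no sample and were not used. In the 4 libraries 71.7 to 75.5% of low values lay within 0.05 of a whole multiple of 1 read, too few to recover counts, so no count test was run.

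Values were analysed as log2(RPKM + 5) with limma 3.58.1 in R 4.3.3 (allele as a block, eBayes with a trend, 1 residual degree of freedom, prior 17.1), two-sided, over bins averaging 5 RPKM or more, and the interaction in an 8-library fit. The fit was tested on simulated data. Fold changes on this scale understate the change of low bins. The pairs are those of the same set-32 allele, and the deviations of single and double mutants from their group means had a correlation of 0.27. P-values measure the spread between these libraries only. An exact permutation test of 2 against 2 libraries cannot go below p = 0.333, and none was used.

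Bins were named by WBcel235 genes that overlap them on either strand, without the piRNA genes. Of 2811 genes with no name there, 2756 took the RefSeq symbol at the same position. In 412 of 501 windows of 200 kb the bins matched the exons best at shift 0 among shifts up to 8 kb; 701 of the 962 called bins lie in such windows, those of C03A7.13, C38D9.2, F07B7.1 and F07B7.2, F49F1.8, fbxa-136, fbxb-97, his-51, his-52, rac-3, T03D3.5, xdh-1 and ZK228 do not. No names were used on chromosome V after 19.2 Mb. The leading 12 regions per direction were those with the largest smaller-of-both-alleles difference, then the top bin of each nuclear RNAi target, up to 4 bins per list and the 5 most opposite between alleles. D2045.9, Y47H9C.9, egl-30, C03A7.13, F57A8.1, rac-3, F49F1.8 and the AC8 regions were named after their values were seen. Counts of list bins without each library were added after seeing the data. The libraries, members and lists were chosen with earlier results of these data known.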

Additional observations from a re-analysis of the deposited data

Results flagged for a closer look

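A few bins moved in opposite directions in the 2 alleles. The difference between alleles was not tested, since each allele has 1 pair. K05C4.9 on chromosome I had -2.61 in ok1457 and 2.94 in red11 at 14728001, and at 14729001 the values were -1.98 and 2.59. The cadherin gene cdh-12 had 2.46 in ok1457 and -2.56 in red11. A bin of bckd-1A, a subunit gene of the branched-chain keto acid dehydrogenase, had 2.03 and -1.98, and a bin of Y62E10A.3 had -1.95 and 2.51. All are differences of double minus single mutant on the log2(RPKM + 5) scale, and these 5 bins were chosen as those with the largest opposite values.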

How the results depend on the processing

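Against 400 higher and 562 lower calls, other settings gave 254 and 357 (pseudocount 1), 96 and 46 (no replicate block), 151 and 126 (eBayes without a trend), and 128 and 135 (8 libraries in the fit). Without a filter on low bins 0 and 0 were called by limma (1463 and 2163 at an unadjusted p under 0.05). All 24 leading bins then lost their calls, with limma adjusted p up to 0.736. All calls of the first 4 were among the main ones. Leaving out 1 library gave 34 to 121 higher and 8 to 178 lower, and those fits have no block. Pseudocount 20 gave 304 and 434, a mean of at least 20 RPKM 323 and 521, centring on library medians 529 and 591, and leaving out misanotated bins 403 and 562. Bins at least 2-fold apart in both alleles numbered 1044 and 1606 with pseudocount 1, 201 and 290 with pseudocount 20, and 287 and 495 with a mean of at least 20 RPKM. With the wild-type pair left out, the interaction gave 20 positive and 12 negative calls. The GRTS median was -0.54 with pseudocount 1, and the 21U-RNA cluster median turned to 0.05 when centred. The cause of these shifts was not tested. The 24 leading bins kept their calls under the settings other than no filter and leaving out a single mutant. The other 37 named bins with a call kept it in 16 cases without the replicate block and in 6 to 21 when 1 library was left out. Depth limits bins under 7.35 to 12.78 RPKM.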
